A study of Mus musculus with 8 samples.

Results

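The genes that encode the proteins of the cytosolic ribosome were followed through 8 RNA-seq libraries of mouse prostate epithelium. Members were the protein-coding genes with a symbol of Rpl or Rps and a digit, together with Rplp0, Rplp1, Rplp2 and Rpsa. Kinase genes named Rps6k and symbols with -ps, the mark of a pseudogene, were left out. The rule found 86 members among 55335 genes listed. Of these, 46 belong to the large subunit and 30 to the small subunit, and these 76 are called subunit members here. A further 8 have an l or x after the number and were kept apart as paralogs (Rps4x, Rps27l, Rpl36al, Rpl22l1, Rpl7l1, Rpl3l, Rpl39l and Rpl10l). The remaining pair were Rps27rt, a retrocopy of Rps27, and Rps19bp1, which encodes a binding protein of Rps19 and was caught by its name alone. Members lie on 19 chromosomes, 4 of them on the X chromosome (Rpl10, Rpl36a, Rpl39 and Rps4x).

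The cells were sorted as EpCAM+, CD24A+ and CD49F-low prostate epithelium. All mice shared 1 prostate genotype, called PP, so no group was wild type. The added allele of PPK mice was Kmt2cPC-/-. Both genotypes were studied as sham at 3.5 months and after ADT, the usual abbreviation of androgen deprivation therapy, at 6.5 months, with 2 libraries (A and B) in each of the 4 groups. Treatment and age changed together and cannot be told apart. The labels give neither the driver of the PC deletions nor the way ADT was done, nor whether A and B came from separate animals, so p-values measure only the spread between these libraries.

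Ribosomal proteins join the ribosomal RNAs to form a large subunit, which makes the peptide bond, and a small subunit, which reads the mRNA. Their mRNAs are among the most abundant of most cells and typically start with a run of pyrimidines, the 5' terminal oligopyrimidine (TOP) tract, through which mTOR signalling and the RNA-binding protein Larp1 control their translation. Myc is a known activator of the transcription of ribosome genes.

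Levels are FPKM as the authors deposited them, that is, fragments per length of gene and size of library. The files give no counts, and depth is therefore unknown. Changes are differences of log2(FPKM + 1) with their SE, and a gene passed with an adjusted p under 0.05 from limma over all 14000 genes tested. The 76 subunit members read at least 16.1 FPKM in every library, far above the filter of 1 FPKM. Of the 86 members 83 were tested. Rpl10l and Rpl39l were listed at 0 in all 8 libraries, and Rpl3l did not exceed 0.0728 FPKM. In mice these 3 are known as testis or muscle forms. The targeted gene Kmt2c was lower in PPK than in PP, by 0.63 ± 0.066 on the log2 scale in sham and by 0.53 ± 0.066 in ADT libraries (limma adjusted p = 0.000795 and 0.00054), and was not absent. The deleted stretch is not in the labels, and reads of remaining exons count here. Summed FPKM ran from 284015 to 333977 over the libraries.

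The subunit members stood at nearly the same total in 6 libraries and far higher in both PPK ADT libraries. Their summed level was 9319 and 9371 FPKM in PP sham, 9216 and 9400 in PPK sham, 8855 and 9210 in PP ADT, and 25546 and 26506 in PPK ADT. Both PPK ADT libraries lay above all others. The PP and PPK sham libraries overlapped, and both PP ADT libraries lay just below them, though with median-of-ratios or equal-sum scaling the mean of PP ADT was above that of PP sham. As a share of all FPKM in the library this was 3.0 to 3.22% in the 6 libraries of those groups and 7.76 and 7.94% in PPK ADT. The median subunit member read 99.0 and 99.4 FPKM in PP sham, 94.5 and 96.4 in PPK sham, 88.0 and 92.7 in PP ADT, and 244 and 265 in PPK ADT. In sorted bulk RNA fewer cells of a type and less RNA per cell cannot be told apart.

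**Figure D1:**
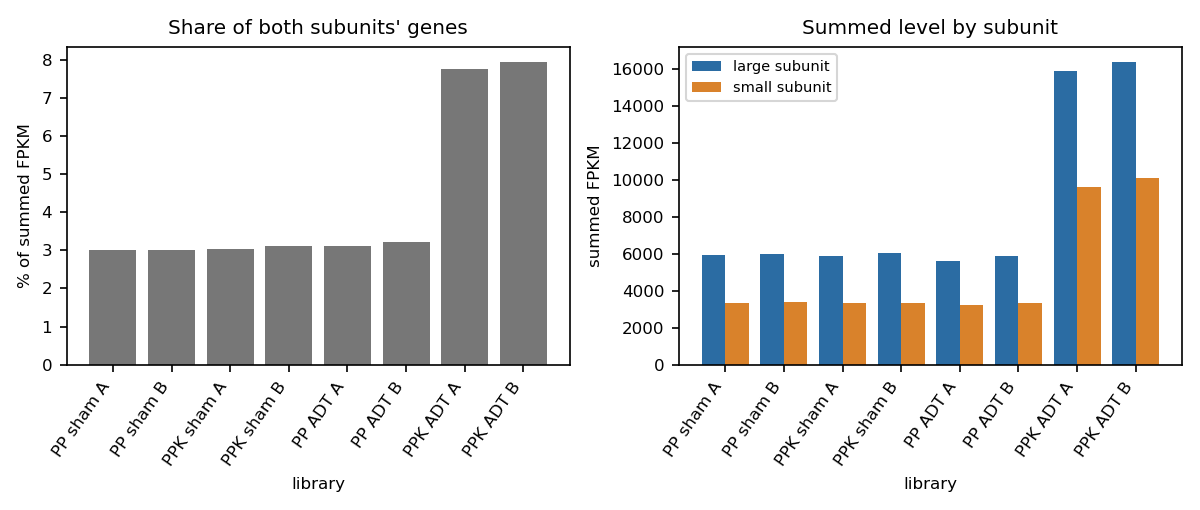
The left panel plots the share of each library's summed FPKM held by the 76 subunit members, in percent, and the right panel their summed FPKM by subunit, with 1 bar per library. The share was 3.0 to 3.22% in 6 libraries and 7.76 and 7.94% in the PPK ADT libraries, where both subunits stood higher.

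The order of members by level was much alike in all groups. Rplp1, an acidic protein of the stalk that recruits elongation factors, had the highest mean level, with 537 and 503 FPKM in PP sham, 473 and 459 in PPK sham, 540 and 570 in PP ADT, and 1351 and 1374 in PPK ADT. Rplp0, the base of the same stalk, and Rps3a1, a small-subunit protein, came next. At the other end stood Rps15a, with 17.4 and 17.3 FPKM in PP sham, 16.1 and 16.2 in PPK sham, 18.4 and 19.4 in PP ADT, and 49.4 and 51.4 in PPK ADT. Rpl34 and Rpl36a, of the large subunit, were the next lowest. Across the 76 genes the Spearman correlation of group means ran from 0.942, between PP sham and PPK ADT, to 0.990, between PPK sham and PP ADT. The points share their gene models and, within a group, their libraries. Members have near-identical pseudogenes, and how the authors shared reads with these can set a level and was not tested.

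**Figure D2:**
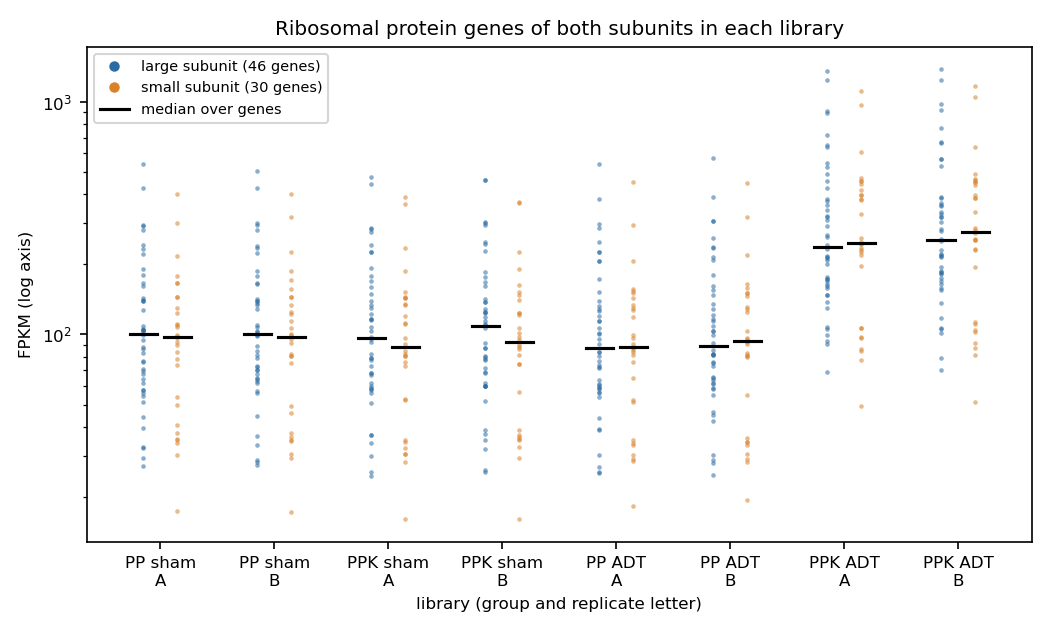
Each point is 1 subunit member in 1 library, on a log axis of FPKM, with the large subunit to the left and the small subunit to the right of each tick and black bars at the medians. The medians of both subunits lie between 87.5 and 109 FPKM in 6 libraries and between 238 and 276 FPKM in the PPK ADT libraries.

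To show what the members share in sequence, starts were read from a RefSeq promoter table (GRCm38.p6), which held 66 of the 86 members, 56 of them subunit members. Not in the table were, among others, Rpl3, Rpl7, Rpl8, Rpl17, Rpl21, Rpl23a, Rpl29, Rpl30, Rpl32, Rpl36, Rplp1, Rps14, Rps20, Rps27a and Rps29. A TOP-like start was taken as a C followed by at least 4 bases of C or T on the gene's strand, beginning no more than 10 bases from the annotated start on either side. Genes with several listed starts counted when any of them held it. It was present in 40 of 66 members (60.6%) and in 34.4% of the 27025 genes in the table. The following windows hold 20 bases before and 20 from the start on, 5' to 3', with the longest such run in capitals. They show the member with the largest rise in PPK ADT against PP ADT (Rps26), the target of S6 kinase (Rps6), the subunit member with the smallest rise (Rpl38), the tested paralogs other than Rps4x set against the genes they are named after where the table holds these, and Rpsa.
Rps26 (chr10:128626487-128626526, minus strand): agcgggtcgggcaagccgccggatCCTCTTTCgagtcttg
Rps6 (chr4:86857348-86857387, minus strand): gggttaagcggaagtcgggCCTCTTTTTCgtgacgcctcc
Rpl38 (chr11:114668560-114668599, plus strand): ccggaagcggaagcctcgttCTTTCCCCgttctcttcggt
Rps27 (chr3:90213629-90213668, minus strand): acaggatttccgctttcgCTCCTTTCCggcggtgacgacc
Rps27rt (chr9:114982720-114982759, minus strand): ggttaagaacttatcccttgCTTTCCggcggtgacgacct
Rps27l, first start (chr9:66946066-66946105, plus strand): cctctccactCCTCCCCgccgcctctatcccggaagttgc
Rps27l, second start (chr9:66946393-66946432, plus strand): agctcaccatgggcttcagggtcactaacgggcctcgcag
Rpl36a (chrX:134585634-134585673, plus strand): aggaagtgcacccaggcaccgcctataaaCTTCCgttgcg
Rpl36al (chr12:69184048-69184087, minus strand): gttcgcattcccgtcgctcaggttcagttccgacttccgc
Rpl22, first start (chr4:152325706-152325745, plus strand): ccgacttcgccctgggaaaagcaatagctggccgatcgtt
Rpl22, second start (chr4:152324416-152324455, plus strand): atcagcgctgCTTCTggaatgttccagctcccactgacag
Rpl22l1 (chr3:28805488-28805527, plus strand): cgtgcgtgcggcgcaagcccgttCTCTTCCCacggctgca
Rpl7l1 (chr17:46782637-46782676, minus strand): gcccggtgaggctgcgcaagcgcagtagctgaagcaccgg
Rpsa (chr9:120127746-120127785, plus strand): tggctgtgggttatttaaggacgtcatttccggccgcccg
Rps27 and its retrocopy share their letters from within the run on, while Rps27l has other letters. Its run has 7 bases, beside 9 in Rps27 and 6 in Rps27rt, and no such run is found at its second listed start or at the first of Rpl22. Rpl36al, Rpl7l1 and Rpsa show no such run that begins within 10 bases of the start. A run of Rpl36al that begins farther on lies in its window and was not counted. Members with and without a counted run are thus found both among genes that rose and among those that did not pass below. Over the whole promoter window of 250 bases before and 50 after the start, CCGGAAG, the core read by ETS factors such as Gabpa, was found on either strand in 26 members (39.4%) and in 9.93% of all genes. GGGCGG, the Sp1 box, was found on either strand in 41 members (62.1%) and in 38.2% of all genes; both motifs can share bases where they meet. CACGTG, the E-box read by Myc, was found in 6 members (9.09%) and in 8.09% of all genes. A match says that these letters are present, not that a factor binds there.

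The comparison of PPK with PP after ADT asked what differed with Kmt2c deletion among ADT mice of the same age, 6.5 months. All 76 subunit members were higher in PPK ADT, by a median of 1.52 on the log2 scale (2.87-fold), and 73 of them rose at least 2-fold. Over all genes tested 32.5% rose, 27.1% fell and 9.91% rose at least 2-fold, and the median change was 0.046. Both PPK ADT libraries lay above all other 6 libraries for 76 of 76 subunit members, against 29.6% of all genes tested. Rps26, a small-subunit protein at the mRNA exit, led with 110 and 114 FPKM in PP sham, 112 and 102 in PPK sham, 96.8 and 96.0 in PP ADT, and 381 and 386 in PPK ADT. Only the PPK ADT libraries were high, and the change against PP ADT was 1.98 ± 0.047 (limma adjusted p = 2.79e-07).

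The 4 members with the smallest adjusted p were of the large subunit. Rplp0 read 427 and 424 FPKM in PP sham, 443 and 462 in PPK sham, 383 and 390 in PP ADT, and 1242 and 1244 in PPK ADT. Its other 3 groups spanned 383 to 462 FPKM, and it rose by 1.68 ± 0.026 (limma adjusted p = 5.9e-08). Rpl3 and Rpl8, which reach towards the peptidyl transferase centre, rose by 1.53 ± 0.027 and 1.52 ± 0.027. Rpl13, another large-subunit protein, rose by 1.64 ± 0.030 from 100 and 104 to 320 and 319 FPKM. Rps20, of the head of the small subunit, rose by 1.91 ± 0.14, from 28.6 and 28.4 FPKM in PP ADT to 107 and 113.

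Since all 76 subunit members rose, those at each listed place on the ribosome rose too, and only the amounts are given here. The 3 stalk genes rose, with Rplp1 at 1.29 ± 0.041, Rplp2 at 1.44 ± 0.054 and Rplp0 as above. Rpl5 and Rpl11, which carry 5S ribosomal RNA and can bind Mdm2 in p53 control, rose by 1.499 ± 0.046 and 1.57 ± 0.13. All 8 genes at the rim of the exit tunnel rose (median 1.43), as did the 3 listed at mRNA entry (median 1.57, among them Fau, which is no member) and the 3 at mRNA exit (median 1.56). All 18 listed members that cause Diamond-Blackfan anaemia when mutated in humans rose, with a median of 1.52, the same as that of all subunit members.

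Large and small subunit members moved by similar amounts. The median change was 1.49 over 46 large-subunit and 1.56 over 30 small-subunit members, with SDs over genes of 0.22 and 0.19, and 43 of 46 against 30 of 30 rose at least 2-fold. The 3 below were Rpl38, Rpl10 and Rpl41, singled out after their values were seen. Rpl38, which in mice favours translation of some Hox mRNAs, read 105 and 108 FPKM in PP sham, 149 and 142 in PPK sham, 128 and 148 in PP ADT, and 243 and 256 in PPK ADT. Its rise of 0.85 ± 0.068 was the smallest of the 76. Rpl10, which joins the large subunit late, rose by 0.90 ± 0.027, and Rpl41, the smallest ribosomal protein, by 0.98 ± 0.19. The ratio of summed large-subunit to summed small-subunit FPKM was 1.78 and 1.78 in PP sham, 1.75 and 1.81 in PPK sham, 1.74 and 1.76 in PP ADT, and 1.65 and 1.62 in PPK ADT. Both PPK ADT libraries were the lowest of the 8 in this ratio of sums. The median log2 level of large-subunit members minus that of small-subunit members did not part the ADT groups. It was -0.0085 and -0.075 in PP ADT, and -0.057 and -0.12 in PPK ADT. In PP sham it was 0.044 and 0.039, and in PPK sham 0.13 and 0.23. These members share their libraries and are no replicates, so the difference between subunits was not tested.

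**Figure D3:**
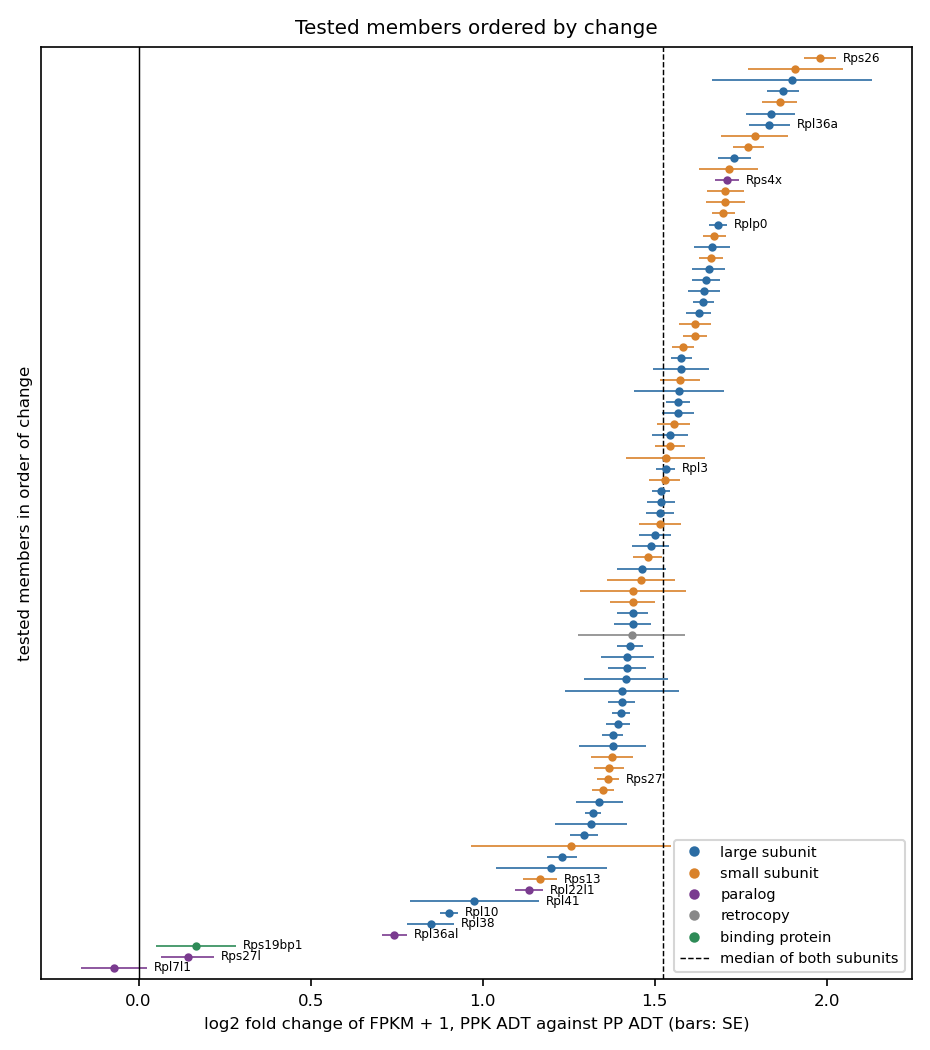
Each of the 83 tested members is a point at its log2 fold change of FPKM + 1 in PPK ADT against PP ADT, with a bar of 1 SE on either side, colours for subunit or kind, and names for some of those described. The 76 subunit members lie between 0.85 and 1.98 around a median of 1.52 (dashed), and Rpl7l1, Rps27l and Rps19bp1 lie near 0. With every library centred on the members, those 3 were lower in PPK ADT, as were 91.3% of all genes. The shift itself sets that share.

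Shifting every library so that the members' median is equal shows which members departed from the common rise. On that scale 22 of the 76 were still higher and 10 were lower in PPK ADT than in PP ADT, while 2.69% of all genes were higher and 91.3% lower, a share that the shift itself sets. Those higher included Rps26 (0.50), Rps20 (0.42), Rpl12 (0.39) and Rps12 (0.38). Those lower were led by Rpl38 (-0.63), Rpl10 (-0.58), Rpl41 (-0.51) and Rps13 (-0.32). Rpl12 and Rps12 were named after their values were seen. Before the shift, the pseudogene row Rps13-ps1 read 7.83 and 8.90 FPKM in PP ADT and 113 and 114 in PPK ADT. Rps13-ps2 read 19.6 and 18.3 in PP ADT and 32.9 and 35.5 in PPK ADT. How reads were shared between these rows and Rps13 was not tested.

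Of all 83 tested members 80 rose, and the paralogs did not move as 1 group. Among 5 that could be tested 3 rose in PPK ADT against PP ADT (Rps4x, Rpl22l1 and Rpl36al), and Rps27l and Rpl7l1 did not pass. Rps4x is the copy in general use in mice, and it read 206 and 213 FPKM in PP sham, 208 and 206 in PPK sham, 210 and 218 in PP ADT, and 686 and 722 in PPK ADT. It behaved like the subunit members, with a rise of 1.71 ± 0.035 (limma adjusted p = 1.57e-07).

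Rps27l, known as a p53-induced form of Rps27, read 74.6 and 80.5 FPKM in PP sham, 83.9 and 81.5 in PPK sham, 53.2 and 62.7 in PP ADT, and 64.8 and 62.9 in PPK ADT. The PPK ADT libraries were thus no higher than those of sham mice, and just above those of PP ADT. The change in PPK ADT against PP ADT was 0.14 ± 0.078 (limma adjusted p = 0.162), and without PP ADT replicate B it was 0.26 and passed. Rps27 itself read 99.4 and 99.2 FPKM in PP sham, 85.2 and 88.4 in PPK sham, 87.4 and 91.1 in PP ADT, and 230 and 233 in PPK ADT, a rise of 1.37 ± 0.032. The ratio of Rps27l to Rps27, which no scaling of the library alters, was 0.751 and 0.812 in PP sham, 0.984 and 0.922 in PPK sham, 0.609 and 0.688 in PP ADT, and 0.282 and 0.270 in PPK ADT. Rps27l and Rps27 shared no more than 11 bases in a row in their transcripts, and no stretch of 50 bases occurred in both.

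Rpl36al was the more abundant gene of its pair in 6 libraries and the less abundant in PPK ADT. It read 64.1 and 65.9 FPKM in PP sham, 60.3 and 59.2 in PPK sham, 47.0 and 45.1 in PP ADT, and 76.4 and 79.0 in PPK ADT. Rpl36a, on the X chromosome, read 27.2 and 27.4 in PP sham, 24.6 and 26.1 in PPK sham, 25.5 and 28.0 in PP ADT, and 94.0 and 102 in PPK ADT. The ratio of Rpl36al to Rpl36a was 2.38 on average in PP sham, 2.36 in PPK sham, 1.73 in PP ADT and 0.795 in PPK ADT (n = 2 each). Against PP ADT, Rpl36al rose by 0.74 ± 0.036 and Rpl36a by 1.83 ± 0.060 (limma adjusted p = 5.81e-06 and 1.02e-06). With the members' median made equal, Rpl36al was 0.74 lower, on a scale where 91.3% of all genes were lower.

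Rpl7l1, found in pre-ribosomes of human cells, read 14.0 and 14.7 FPKM in PP sham, 12.95 and 14.4 in PPK sham, 13.03 and 14.4 in PP ADT, and 14.2 and 11.9 in PPK ADT. All groups overlapped. Rpl7 read 139 and 137 in PP sham, 139 and 138 in PPK sham, 139 and 135 in PP ADT, and 359 and 367 in PPK ADT, and the mean ratio of Rpl7l1 to Rpl7 went from 0.1003 in PP ADT to 0.0360 in PPK ADT. The change of Rpl7l1 against PP ADT was -0.071 ± 0.096 (limma adjusted p = 0.556), and with values rescaled to an equal sum in each library it was -0.29 and passed (limma adjusted p = 0.0491).

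Rpl22l1, whose mRNA is held down by Rpl22 in mice, read 33.2 and 31.6 FPKM in PP sham, 20.9 and 22.0 in PPK sham, 30.5 and 30.3 in PP ADT, and 67.0 and 68.8 in PPK ADT. It was lowest in PPK sham and highest in PPK ADT, with no overlap between those groups and the PP groups. It fell by 0.57 ± 0.042 in PPK sham against PP sham (limma adjusted p = 0.00017) and rose by 1.13 ± 0.042 in PPK ADT against PP ADT (limma adjusted p = 1.7e-06). Rpl22 read 44.3 and 36.8 in PP sham, 37.1 and 37.3 in PPK sham, 38.7 and 46.3 in PP ADT, and 108 and 106 in PPK ADT. Its change in sham was -0.11 ± 0.11 and did not pass (limma adjusted p = 0.477), and in ADT it rose by 1.32 ± 0.11.

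**Figure D4:**
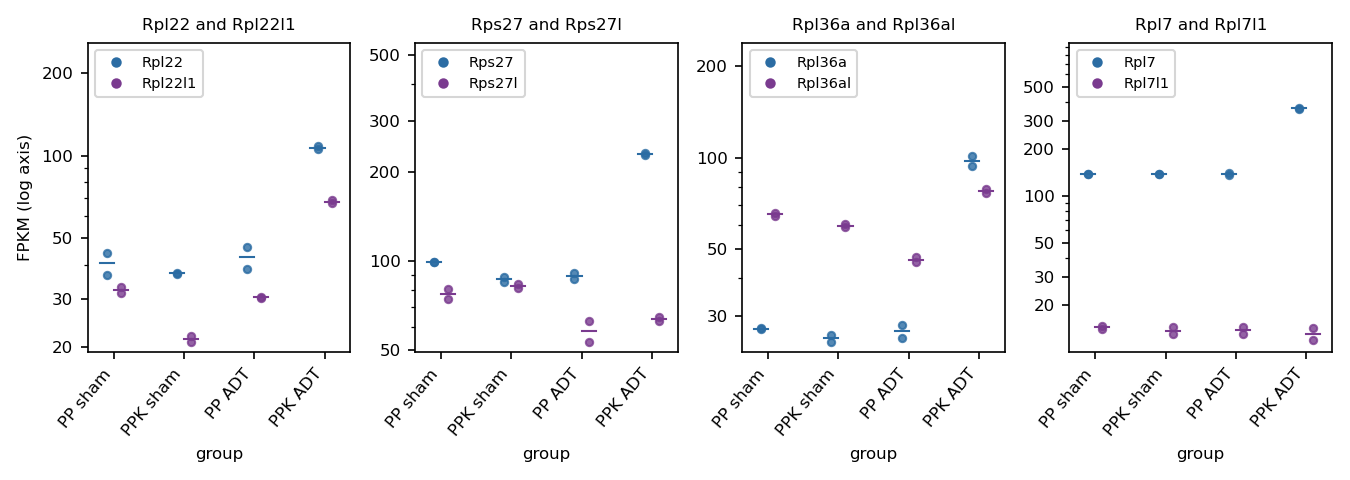
FPKM of 4 paralogs (purple) and the genes they are named after (blue) are plotted on log axes by group, with 1 point per library and a bar at the mean of 2. The named-after genes are highest in PPK ADT in all 4 panels, Rpl7l1 overlaps between all groups, Rps27l in PPK ADT is near PP ADT and below PPK sham, and Rpl36al passes from above to below Rpl36a.

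The retrocopy Rps27rt shares a run of 341 bases with Rps27, and 91.1% of its stretches of 50 bases occur in Rps27 transcripts. It read 52.0 and 47.2 FPKM in PP sham, 35.5 and 46.1 in PPK sham, 37.0 and 45.2 in PP ADT, and 102 and 123 in PPK ADT, always close to the same fraction of Rps27 (0.417 to 0.527). Its rise of 1.43 ± 0.16 cannot be told apart from that of Rps27. Rps19bp1 read 10.02 and 9.76 FPKM in PP sham, 9.82 and 10.3 in PPK sham, 7.46 and 7.17 in PP ADT, and 7.21 and 9.63 in PPK ADT. Its change of 0.17 ± 0.12 did not pass (limma adjusted p = 0.257), and without PPK ADT replicate A it was 0.35 and passed. Pseudogene rows named for members moved along in PPK ADT against PP ADT, where 32.5% of all genes rose. Of 298 such pseudogene rows, 65 were at 0 in all libraries and 120 were tested, and 119 of those rose. Their summed FPKM was 24.1 to 26.4% of that of the subunit members in every library, and how the authors shared reads between them and the members was not tested.

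Other parts of the translation machinery from lists of known genes were set beside the members. Fau and Rack1 encode ribosomal proteins under other names, and they rose by 1.25 ± 0.048 and 1.67 ± 0.11 in PPK ADT against PP ADT. All 16 of 16 other genes with known TOP mRNAs rose, with a median of 1.08, beside 32.5% of all genes that rose. In PPK ADT against PPK sham the elongation factor genes Eef1a1, Eef2 and Eef1g rose by 1.32 ± 0.018, 1.24 ± 0.020 and 1.70 ± 0.032. Eef1a1 read 1187 and 1182 FPKM in PPK sham and 2940 and 2986 in PPK ADT.

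Of 16 tested genes that control growth and ribosome synthesis, 10 rose and 4 fell in PPK ADT against PP ADT, with a median of 0.36. Over all genes tested 32.5% rose and 27.1% fell, so the part of this list that fell was near that of all genes. Myc read 23.1 and 22.7 FPKM in PP sham, 25.2 and 23.4 in PPK sham, 24.2 and 21.3 in PP ADT, and 57.8 and 49.5 in PPK ADT. It was high only in PPK ADT, with a rise of 1.20 ± 0.090 (limma adjusted p = 4.49e-05). Eif4ebp1, a repressor of cap-dependent translation, rose by 1.63 ± 0.089 from 2.42 and 2.09 FPKM in PP ADT to 8.52 and 9.57, while its 8.51 and 8.57 FPKM in PPK sham were as high. In PP sham it read 5.51 and 6.21 FPKM, so that it had fallen by 1.08 ± 0.089 in PP ADT against PP sham (limma adjusted p = 0.000142), a comparison named after its values were seen. Those that fell were Mycl, Mtor, Tsc1 and Eif4ebp2, by 0.21 to 0.43, named after their values were seen. Eif4ebp2, the related repressor, had also fallen by 0.82 ± 0.031 in PP ADT against PP sham. Mtor did not pass with only these 2 groups fitted (-0.21), without either PP ADT replicate (-0.21 each) or without PPK ADT replicate B (-0.17), and Mycl did not pass without PP ADT replicate A (-0.24) or PPK ADT replicate A (-0.31).

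Of 14 tested genes for assembly and chaperones of ribosomal proteins, 12 rose and 1 fell in PPK ADT against PP ADT. Their median was 0.69, while 32.5% of all genes rose and 27.1% fell. Nob1, the nuclease that finishes 18S ribosomal RNA, rose by 1.52 ± 0.095 from 2.78 and 2.28 FPKM to 8.77 and 9.47. Heatr3, which in human cells brings Rpl5 into the nucleus, rose by 1.35 ± 0.11, and Grwd1, a chaperone of Rpl3 in human cells, rose by 1.10 ± 0.063 in PPK ADT against PPK sham. Sbds, which readies new large subunits for use, fell by 0.69 ± 0.11 and was named after its values were seen.

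Cell type markers moved with the same libraries. Epcam, Cdh1 and Cd24a, the epithelial markers, summed to 1581 to 1687 FPKM in 6 libraries and to 1101 and 1096 in PPK ADT. The 4 basal markers summed to 808 to 1323 FPKM in those 6 libraries and to 5720 and 5789 in PPK ADT, where Krt5 reached 3242 and 3243 FPKM. Krt5, Krt14 and Trp63 were highest in PPK ADT, while Krt15, which made up most of the sum elsewhere, read 950 and 981 FPKM there and 1266 and 1279 in PPK sham. The 5 suprabasal squamous markers summed to 16.6 to 68.5 FPKM and to 1707 and 1728, the 5 luminal keratin and claudin markers to 6382 to 8431 and to 3532 and 3535, and the 6 proliferation markers to 25.1 to 37.0 and to 54.7 and 55.8. Of the luminal markers Cldn4 read 2302 and 2287 FPKM in PPK ADT, within its 2069 to 3310 elsewhere, and the other 4 were lowest in PPK ADT. The 8 lymphocyte markers stayed at or below 0.812 FPKM in sum in every library, and the 13 mitochondrial mRNAs summed to 36336 to 48873 FPKM in the 6 libraries and to 47353 and 48332 in PPK ADT, within that range. Lower in level but also highest in PPK ADT were the 6 fibroblast markers (28.8 and 30.0 against 4.54 to 17.7 FPKM), the 4 neutrophil markers (11.7 and 11.5 against 0.0476 to 4.87), the 3 smooth muscle markers (7.81 and 8.46 against 0.88 to 3.91), the 4 neuroendocrine markers (4.55 and 4.51 against 1.25 to 3.91) and the 3 haemoglobin genes (20.8 and 17.4 against 4.33 to 10.8). Of the neutrophil markers Elane was at 0 in all libraries and Mpo in both PPK ADT libraries, so the sum there was S100a8 and S100a9, which squamous keratinocytes are also known to make. Most of the smooth muscle sum was Acta2, and Myh11 in PPK ADT (0.459 and 0.259 FPKM) was below PPK sham (0.535 and 0.483). The 8 macrophage markers had their lowest sum in PPK ADT (53.5 and 52.4 against 57.6 to 142). Among them Cd14 was lowest in PPK ADT (16.4 and 13.6 against 41.3 to 101 FPKM) and Lyz2 highest (12.3 and 11.3 against 1.45 to 8.33). The rest of the macrophage markers lay within their range elsewhere. The sum of the 4 endothelial markers (0.994 and 0.996) also lay within its range elsewhere (0.376 to 3.29). The part of these cell types in the rise of the ribosomal protein genes was not tested.

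Genes were also grouped by transcript length and level, since 32 of the 76 subunit members have no transcript of 1000 bases or more. Other protein-coding genes with such short transcripts had a median change of 0.17 in PPK ADT against PP ADT (557 genes), and longer ones a median of 0.0015 (10914 genes). The 1407 other protein-coding genes with a mean level at or above that of the lowest subunit member had a median of -0.087. The median of the subunit members was 1.52. The part of transcript length and RNA handling in the rise was not tested.

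PPK sham was compared with PP sham to see the effect of genotype without ADT, at 3.5 months. The subunit members stayed close to PP sham as a group, with a median change of -0.0061 against -0.015 over all genes tested, and the sign of the group's median turned to 0.0085 with median-of-ratios scaling and to 0.033 with values rescaled to an equal sum. Of the 76, 8 rose and 9 fell, beside 13.7% and 14.9% of all genes, and the split was 10 and 9, and 12 and 6, under these scalings. Without PP sham replicate A 4 rose, and without PPK sham replicate B 5 rose and 5 fell.

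Among those that rose, Rpl38 went from 105 and 108 FPKM to 149 and 142, a rise of 0.44 ± 0.068 (limma adjusted p = 0.00399). Rpsa, a small-subunit protein also known as a laminin receptor, went from 90.2 and 91.7 to 120 and 121, a rise of 0.40 ± 0.032 (limma adjusted p = 0.000268). The row of its processed pseudogene Rpsa-ps10 went the other way, from 123 and 121 FPKM in PP sham to 25.8 and 27.4 in PPK sham, and how the authors shared reads between these rows was not tested. Rpl13 and Rps24 rose by 0.22 ± 0.030 and 0.20 ± 0.034. Rps13 fell by 0.33 ± 0.050, from 35.3 and 37.7 to 28.3 and 29.3 FPKM, and Rpl10 and Rps27 fell by 0.22 ± 0.027 and 0.19 ± 0.032. In none of these did the pairs of libraries overlap. The pseudogene row Rps13-ps1 went against Rps13, from 11.0 and 10.3 FPKM in PP sham to 27.0 and 27.8 in PPK sham. Rps13-ps2 went with Rps13, from 18.9 and 22.8 to 15.6 and 15.7 FPKM. How the authors shared reads between these rows and Rps13 was not tested. Of the paralogs, Rpl36al was 0.12 ± 0.036 lower (limma adjusted p = 0.0493), a call that was lost when any 1 library was left out (limma adjusted p = 0.0547 to 0.2).

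PP ADT against PP sham gave the effect of ADT with age in mice whose labels give no Kmt2c deletion. The subunit members again kept close to sham, and the direction of the group depended on the scaling. Their median change was -0.039 against -0.069 over all genes, 6 rose and 17 fell, beside 19.1% and 25.1% of all genes. With median-of-ratios scaling 15 rose and 6 fell (median 0.040), and with values rescaled to an equal sum 21 rose and 4 fell (median 0.087). Without PP ADT replicate A 9 fell.

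Rpsa and Rpl38 were higher here as well, by 0.42 ± 0.032 and 0.37 ± 0.068 (limma adjusted p = 0.000104 and 0.00526); PP sham is the reference of both comparisons, so the pair of results shares those libraries. Rpsa read 119 and 125 FPKM in PP ADT, close to its 120 and 121 in PPK sham. Rpsa-ps10 was again the opposite, at 21.8 and 23.0 FPKM in PP ADT against 123 and 121 in PP sham. Rps24 and Rpl3 rose by 0.19 ± 0.034 and 0.14 ± 0.027. Rpl10 fell by 0.30 ± 0.027 (limma adjusted p = 0.000199), from 144 and 142 FPKM to 115 and 116, Rps28 by 0.36 ± 0.061 and Rpl39, in the exit tunnel, by 0.30 ± 0.046. Rpl36al and Rps27l fell by 0.49 ± 0.036 and 0.42 ± 0.078 (limma adjusted p = 8.01e-05 and 0.00552), more than most subunit members, whose lowest value was -0.56 (Rpl29). Rps27 was 0.15 ± 0.032 lower (limma adjusted p = 0.00901), a call that both other scalings ended, with -0.074 and -0.028.

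PPK ADT against PPK sham gave the effect of ADT with age in mice labelled Kmt2cPC-/-. All 76 subunit members rose, with a median of 1.47 (2.76-fold), beside 31.9% of genes that rose and 30.7% that fell and a median of 8.57e-05 over all genes. Those with the smallest adjusted p were Rpl3 (1.59 ± 0.027), Rpl8 (1.54 ± 0.027), Rplp0 (1.46 ± 0.026) and Rps6, the substrate of S6 kinase (1.68 ± 0.032, limma adjusted p = 7.82e-08). Rps6 read 166 and 157 FPKM in PP sham, 143 and 141 in PPK sham, 154 and 151 in PP ADT, and 456 and 460 in PPK ADT. Its 3 other groups spanned 141 to 166 FPKM. Among the paralogs Rps4x, Rpl22l1 and Rpl36al rose by 1.76 ± 0.035, 1.62 ± 0.042 and 0.37 ± 0.036, while Rps27l fell by 0.37 ± 0.078 (limma adjusted p = 0.00596). Rpl7l1 stood at -0.067 ± 0.096.

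**Figure D5:**
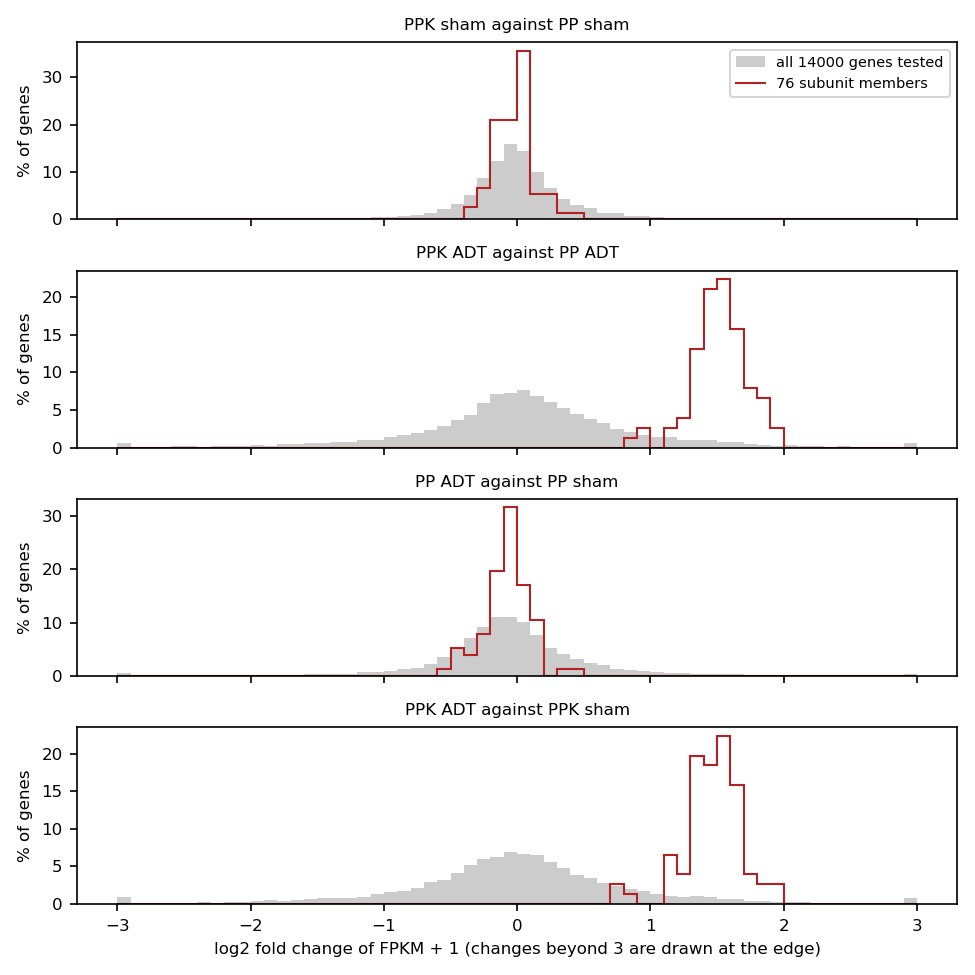
Grey areas show the share of all 14000 genes tested, and red lines that of the 76 subunit members, in bins of 0.1 of the log2 fold change of FPKM + 1, for 4 comparisons. The members lie around 0 in PPK sham against PP sham and in PP ADT against PP sham, where the sign of their median depends on the scaling, and around medians of 1.52 and 1.47 in both comparisons of PPK ADT.

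The difference of both genotype effects, the change of PPK against PP in ADT minus that in sham, was tested directly in the same fit. It was above 0 and passed for all 76 subunit members, with a median of 1.55, beside 30.0% of all genes that passed in that direction and 22.8% in the other. Values ran from 0.41 (Rpl38) to 2.04 (Rps26). With the 2 other scalings 75 and 74 passed. Rps27l (0.050 ± 0.11) and Rpl7l1 (-0.0029 ± 0.14) did not pass.

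The pairs of libraries agreed closely for most members. The median difference of A and B over subunit members was 0.047 to 0.067 on the log2 scale in the 4 groups. Rps10 was an exception, with 54.0 and 34.7 FPKM in PP sham, 52.6 and 36.2 in PPK sham, 52.2 and 33.4 in PP ADT, and 97.8 and 105 in PPK ADT. It was lower in replicate B of 3 groups and not of the fourth. Rps10 was singled out after its values were seen.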

How the data were processed

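RNA of 8 libraries in 4 groups of 2 was measured after Trizol extraction and strand-specific TruSeq preparation, per the labels. FPKM values per gene were computed by the authors and deposited as 1 table per library. FastQC 0.11.2 and the build mm10 appear in the submitters' processing notes. Which aligner, quantifier and annotation were used is not given in the sources used here. No counts are in the tables and whole reads could not be recovered from low values, so depth and counting error are unknown.

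GENCODE M21 (GRCm38) gave a symbol for 55154 of 55335 identifiers. The filter asked for 1 FPKM or more in 2 libraries or more and left 14000 genes. Their log2(FPKM + 1) values were fitted in limma 3.58.1 (R 4.3.3) with 1 mean for each group and eBayes with a trend, which left 4 residual degrees of freedom beside 2.4 prior ones. Adjustment was Benjamini-Hochberg over all genes, two-sided, at 0.05. The test was tried on simulated data with independent libraries and few changed genes, which cannot show how it errs on these data. Python 3.11.15, pandas 2.3.3, numpy 2.4.6 and matplotlib 3.10.9 made joins, summaries and plots.

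Alternatives were pseudocount 0.1, no filter, median-of-ratios scaling, rescaling to an equal sum (TPM), centring on the members, a replicate block, only the 2 groups compared, and each library left out. Members, lists, tests and alternatives were chosen with earlier results of these data known. Named were Kmt2c, paralogs and the genes they are named after, in each comparison and direction the 4 members of smallest adjusted p or fewer, the 3 highest and 3 lowest by level, the 3 farthest above and below the median change in PPK ADT against PP ADT, Fau and Rack1, and up to 3 genes of each other list. Exceptions are marked in the text, and some genes that the rule names are not reported here.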

Additional observations from a re-analysis of the deposited data

Results flagged for a closer look

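The genotype effect differed between ADT and sham libraries, by a direct test of that difference (limma, adjusted p under 0.05 over all genes), for 76 of 76 subunit members. Among the named genes that passed, the difference on the log2 scale was 0.86 for Rpl36al, 1.39 for Rpl7, 1.43 for Rpl22, 1.45 for Rpl3, 1.56 for Rps27, 1.56 for Rpl8, 1.59 for Rplp0, 1.71 for Rpl22l1, 1.73 for Rps4x, 1.76 for Rps6 and 1.94 for Rpl36a. For each of these genes both PPK ADT libraries were above both PP ADT libraries. ADT mice were also 3 months older than sham mice, and which of age and ADT goes with the difference cannot be told apart.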

How the results depend on the processing

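In both comparisons of PPK ADT every setting but the centring on the members kept 74 to 76 of 76 members risen and 0 fallen. Their median against PP ADT was 1.46 with median-of-ratios scaling and 1.32 with TPM scaling, against PPK sham 1.34 with TPM scaling, and for the difference of effects 1.48 and 1.302. TPM scaling moved the median of all genes by -0.19 in PPK ADT against PP ADT. For PP ADT against PP sham, median-of-ratios and TPM scaling gave 15 and 21 that rose, 6 and 4 that fell and medians of 0.040 and 0.087. For PPK sham against PP sham, 5 rose with no filter and 5 fell with only the 2 groups compared. Summed levels were 9133 FPKM in PP sham and 9330 in PP ADT with median-of-ratios scaling. As TPM they were 30028, 30730, 31684 and 78483 in PP sham, PPK sham, PP ADT and PPK ADT. Rpl7 in PP ADT against PP sham turned to 0.12 with TPM scaling.

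Centring on the members sets their change near 0 by construction. Then 8 rose and 2 fell (median 0.049) in PPK sham, 22 and 10 (0.040) in PPK ADT against PP ADT, 16 and 3 (0.094) in PP ADT, 29 and 7 (0.062) in PPK ADT against PPK sham, and 7 and 7 (0.012) for the difference of effects. Values that turned in PPK ADT against PP ADT were -0.23 for Fau, -0.13 for Heatr3, -0.28 for Myc, -0.58 for Rpl10, -0.17 for Rpl22, -0.35 for Rpl22l1, -0.74 for Rpl36al, -0.63 for Rpl38, -0.51 for Rpl41, -0.083 for Rpl7, -0.32 for Rps13, -1.32 for Rps19bp1, -0.12 for Rps27, -1.34 for Rps27l and -0.050 for Rps27rt. Against PPK sham they were -0.083 for Eef1a1, -0.17 for Eef2, -0.30 for Grwd1, -1.03 for Rpl36al, -0.021 for Rpl7 and -0.00073 for Rps27. For the difference of effects they were -1.44 for Kmt2c, -0.11 for Rpl22, -0.090 for Rpl3, -0.68 for Rpl36al, -0.15 for Rpl7 and -1.49 for Rps27l.

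With 1 library left out, 4 to 7 rose and 5 to 9 fell in PPK sham against PP sham, and 5 to 7 rose and 9 to 15 fell in PP ADT against PP sham. With the replicate letter as a block 7 rose and 11 fell in PPK sham, 7 and 19 in PP ADT, and 76 and 0 in both comparisons of PPK ADT; only the call of Rpl36al in PPK sham was lost among 100 values of named genes. The labels do not say whether the letters pair the libraries. Differences of A and B over the genes tested correlated at -0.0079 to 0.057 between groups, which cannot settle it. The causes of these changes were not tested.

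Groups of 2 leave 4 residual degrees of freedom. FPKM hide depth, and reads shared with pseudogenes could not be parted. A rise in FPKM is a rise relative to the rest of the library, and no spike-in or cell number was used to set it on an absolute scale.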
